A study of Mus musculus with 9 samples.

Results

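Desmosomes are the spot-like junctions that tie the intermediate filaments of neighbouring cells together, and they give epidermis its resistance to mechanical stress. In each junction the desmogleins and desmocollins, which are cadherins, reach across the gap between cells. Plakoglobin and the plakophilins bind the tails of the cadherins inside the cell, and desmoplakin links them to keratin filaments. A set of 10 desmosome genes was followed here across hind paw skin, dorsal root ganglia (DRG, which hold the cell bodies of sensory neurons) and lumbar spinal cord. The genes were taken from the gene symbols of the deposited count tables, and all 10 were found among 22609 genes. They are the desmogleins Dsg1a and Dsg3, the desmocollins Dsc1 and Dsc3, plakoglobin (Jup), the plakophilins Pkp1 and Pkp3, desmoplakin (Dsp), envoplakin (Evpl) and the tetraspan membrane protein gene Perp. The 4 cadherin genes lie on chromosome 18.

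The 9 RNA sequencing libraries came from male C57 mice aged 8 to 12 weeks, with 3 libraries from each tissue. All the mice had received paclitaxel (PTX), a microtubule-stabilising chemotherapy drug, as 2 injections of 2 mg/kg into the peritoneum. A blocker of the lymphotoxin-beta receptor (LTβR) was given to all of them as well, 15 µg at each site, into the hind paw and the spinal fluid, and the tissue was taken 6 days after the last PTX dose. The sample titles place the antagonist on days 1 and 4, whereas the series text places it between the PTX doses and after them. The protocol text of these samples also lists IgG, 10 µg at each site, while the series text gives IgG to control mice, so whether these mice received it is uncertain. Control mice are not analysed here, and every comparison is between tissues of mice with the same label of treatment. Reads assigned to genes ran from 15537545 to 23229724 per library. Levels are in CPM, a gene's reads per 1000000 reads of its library after TMM scaling of library sizes, given as mean ± SD with n = 3. Fold changes are on the log2 scale ± standard error, and calls rest on a Benjamini-Hochberg adjusted p under 0.05 in edgeR's quasi-likelihood test over 16091 genes. Separate mice are not stated for the 3 samples of a tissue, and p-values cover only the spread among them, which may be technical. In bulk tissue, fewer cells of a type and less RNA per cell cannot be told apart.

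The tissues matched their labels. The summed level of 10 keratinocyte markers was 35600 to 52620 CPM in paw, while DRG had 301 to 422 CPM and spinal cord 142 to 198 CPM. The integrin gene Itgb4, which is expressed well beyond keratinocytes, made up most of the sum outside the paw. Markers of sensory neurons summed to 3795 to 4503 CPM in DRG and to at most 83.6 CPM elsewhere, and markers of oligodendrocytes to 6589 to 7060 CPM in spinal cord and to at most 816 CPM elsewhere. The paw punches also held skeletal muscle transcripts, with a summed level of 9015 to 11190 CPM over 5 markers. Spinal cord 3 stood apart from the other cord samples in its Schwann cell markers (8251 CPM against 2885 and 3061 CPM), meningeal markers (306 CPM against 90.5 and 91.1 CPM) and fibroblast markers (1185 CPM against 513 and 409 CPM). DRG 1 and DRG 2 held more muscle transcripts (462 and 708 CPM) than DRG 3 (25.7 CPM).

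All 10 desmosome genes were called higher in paw skin than in DRG and higher in paw skin than in spinal cord. The background was 39.7% of all tested genes called higher in paw than in DRG and 39.9% called higher in paw than in spinal cord, and 40.8% and 41.7% were called lower in paw. The median log2 fold change of the 10 genes was 10.63 against DRG and 10.20 against spinal cord, where the medians over all tested genes were −0.02 and −0.03. No library of the paw overlapped with any library of the other tissues for any of the 10 genes. The share of all tested genes separated in this way was not counted, so the separation is description only. All 10 genes passed the filter on low counts, and 9 would have passed it from the DRG and spinal cord libraries alone. Dsg3 passed only through its paw reads and therefore had to differ.

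**Figure D1:**
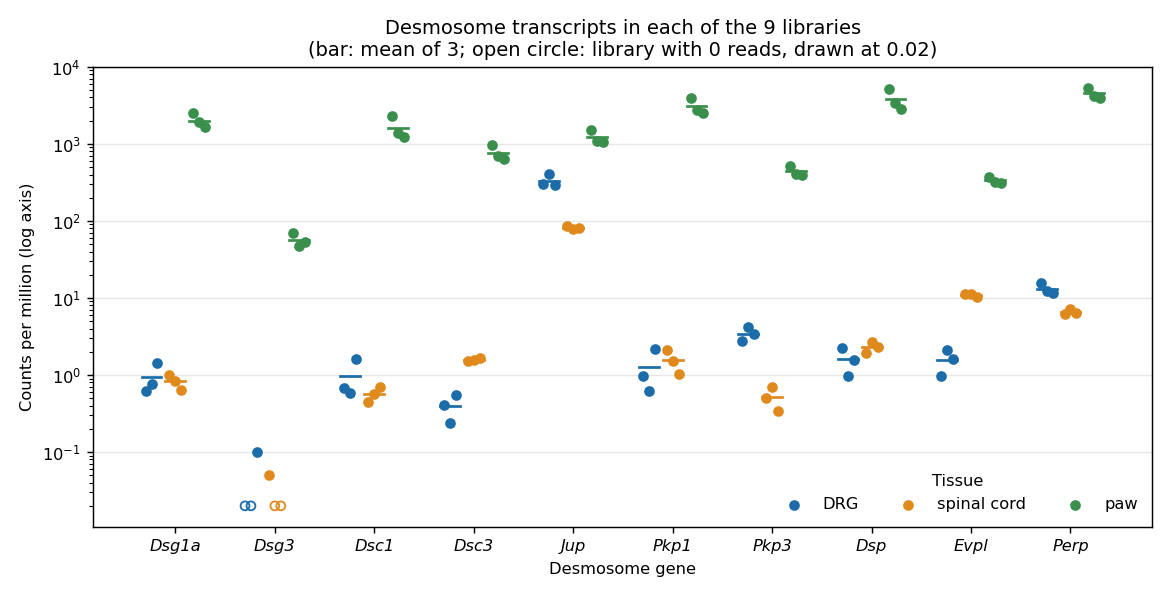
Level in CPM of the 10 desmosome genes in each of the 9 libraries, on a log axis. Points are libraries, bars are the means of 3 libraries, and open circles mark libraries with 0 reads. For Jup the DRG and spinal cord points lie between 79.0 and 401 CPM, whereas for Dsg1a, Dsg3, Dsc1, Dsc3, Dsp and Pkp1 they lie below 3 CPM.

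Among the desmogleins, Dsg1a encodes a form of desmoglein 1, the desmoglein of the upper living epidermis. Its level was 2489, 1895 and 1639 CPM in paw samples 1 to 3, 0.626, 0.772 and 1.44 CPM in DRG samples 1 to 3, and 1.00, 0.840 and 0.631 CPM in spinal cord samples 1 to 3. Paw was therefore higher than DRG by 11.06 ± 0.32 and than spinal cord by 11.23 ± 0.32, while DRG and spinal cord overlapped. Mice carry close copies of this gene, and 35.0% of the 50-base windows of the longest Dsg1a transcript also occur in Dsg1b, Dsg1c or Gm49536. Reads that aligned to several places were not counted to genes, so the level of Dsg1a is uncertain. Dsg3, the desmoglein of the basal layers and the target of autoantibodies in pemphigus vulgaris, had 1156, 758 and 912 reads in the paw libraries. It had 0, 0 and 2 reads in the DRG libraries and 1, 0 and 0 reads in the spinal cord libraries. The ratio of paw to DRG was 1790 with a 95% counting interval of 496 to 14800, and that of paw to spinal cord was 3330 with an interval of 598 to 132000. Only 0.357% of the Dsg3 windows occur in another gene.

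The desmocollins pair with the desmogleins. Dsc1, the desmocollin of the upper epidermis, stood at 2282, 1378 and 1224 CPM in paw samples 1 to 3. In DRG it was at 0.670, 0.579 and 1.63 CPM and in spinal cord at 0.450, 0.560 and 0.689 CPM. The difference between DRG and spinal cord was not called (0.75 ± 0.54, adjusted p = 0.253). Dsc3, which is strongest in the lower epidermis, stood at 978, 695 and 634 CPM in paw. It was at 0.402, 0.241 and 0.545 CPM in DRG and at 1.501, 1.59 and 1.67 CPM in spinal cord. All 3 spinal cord samples lay above all 3 DRG samples, and Dsc3 was called lower in DRG (−1.98 ± 0.33, adjusted p = 0.000324). The sizes against paw differed accordingly, with 10.90 ± 0.27 over DRG and 8.92 ± 0.23 over spinal cord.

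Of the armadillo-repeat proteins that sit between cadherin and plakin, plakoglobin (Jup) also serves in adherens junctions. Jup was at 1508, 1097 and 1066 CPM in paw samples 1 to 3. In DRG it was at 298, 401 and 296 CPM, and in spinal cord at 85.0, 79.0 and 81.1 CPM. It was the only one of the 10 genes above 20 CPM in DRG or spinal cord, and no tissue overlapped with another. Paw was higher than DRG by 1.88 ± 0.16 (adjusted p = 5.88e-07) and than spinal cord by 3.90 ± 0.18 (adjusted p = 1.67e-09), and DRG exceeded spinal cord by 2.02 ± 0.17 (adjusted p = 1.03e-06). Without spinal cord 3, the sample with more Schwann cell, meningeal and fibroblast transcripts, the excess of DRG over spinal cord was 2.02 for Jup. That value does not bear on the make-up of DRG. Markers of Schwann cells and satellite glia summed to 20250 to 27040 CPM in DRG and 2885 to 8251 CPM in spinal cord. Fibroblast markers summed to 2235 to 3323 CPM and 409 to 1185 CPM. The part of tissue make-up in the Jup difference was not tested.

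The plakophilins differed from each other outside the paw. Pkp1, the plakophilin of the upper epidermis whose loss causes skin fragility in humans, was at 3982, 2758 and 2509 CPM in paw. It was at 0.983, 0.628 and 2.18 CPM in DRG and at 2.10, 1.54 and 1.03 CPM in spinal cord, and these ranges overlapped (−0.32 ± 0.45, adjusted p = 0.561). Pkp3, which is present through the whole epidermis and in simple epithelia, was at 517, 408 and 393 CPM in paw. It was at 2.77, 4.15 and 3.37 CPM in DRG, or 62, 86 and 68 reads, and at 0.500, 0.6998 and 0.344 CPM in spinal cord, or 10, 15 and 6 reads. Every DRG sample lay above every spinal cord sample for Pkp3, and the difference of 2.69 ± 0.27 was called (adjusted p = 5.52e-06).

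The plakins bind intermediate filaments. Desmoplakin (Dsp), the obligate plakin of the desmosome, was at 5205, 3380 and 2875 CPM in paw. In DRG it was at 2.23, 0.965 and 1.59 CPM and in spinal cord at 1.90, 2.66 and 2.30 CPM, with overlapping ranges (−0.51 ± 0.34, adjusted p = 0.222). Envoplakin (Evpl), a partner of periplakin that also enters the cornified envelope, was at 370, 323 and 314 CPM in paw. In DRG it was at 0.983, 2.12 and 1.63 CPM and in spinal cord at 11.2, 11.4 and 10.3 CPM. All cord samples lay above all DRG samples, and Evpl was the gene of the 10 with the largest fall in DRG relative to spinal cord (−2.80 ± 0.20, adjusted p = 2.63e-07). Its excess of paw over spinal cord, 4.94 ± 0.17, was accordingly smaller than that over DRG, 7.73 ± 0.20.

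Perp, a target of p53 and p63 that is needed for desmosome assembly in stratified epithelia, had the highest paw level of the 10. It was at 5388, 4204 and 3980 CPM in paw, then at 15.4, 12.3 and 11.7 CPM in the DRG samples and at 6.10, 7.14 and 6.43 CPM in spinal cord. The tissues did not overlap, and DRG was called higher than spinal cord by 1.00 ± 0.17 (adjusted p = 0.000304). Paw was higher than DRG by 8.43 ± 0.21 and than spinal cord by 9.43 ± 0.22.

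**Figure D2:**
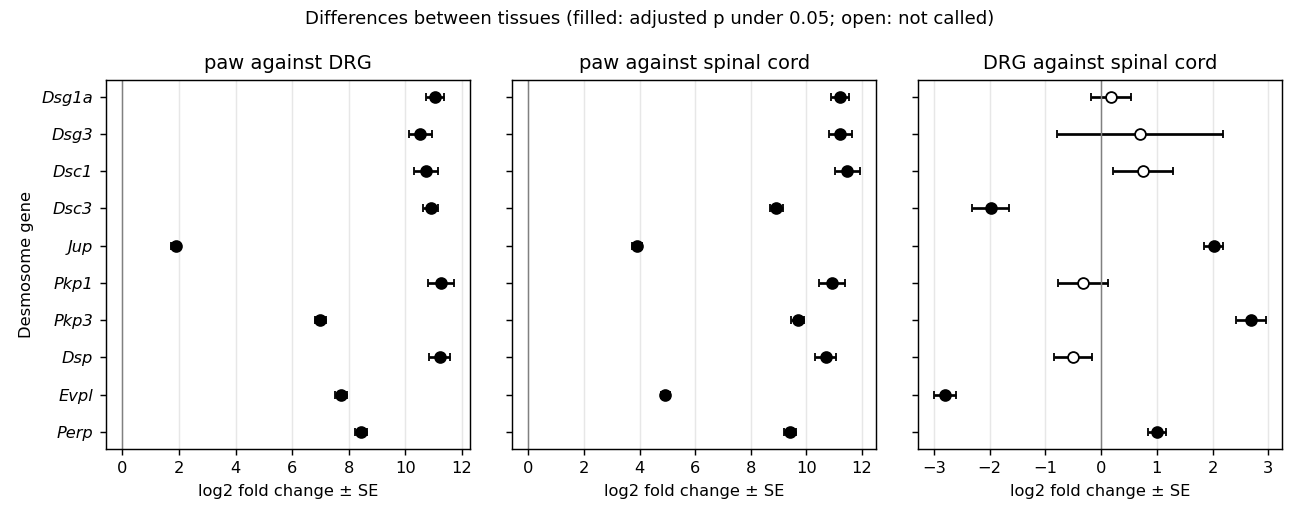
Log2 fold change ± standard error of the 10 desmosome genes in the 3 comparisons of tissues. The standard errors were derived from the F value of the test and can be too small for Dsg3. Filled points were called and open points were not. Jup is the smallest difference from paw in both left panels, at 1.88 and 3.90, and in the right panel Jup, Perp and Pkp3 lie above 0 and Dsc3 and Evpl below it.

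Between DRG and spinal cord 5 of the 10 genes were thus called, where 59.6% of all tested genes were called. Jup, Perp and Pkp3 were higher in DRG (29% of all tested genes were called in that direction) and Dsc3 and Evpl were lower (30.6% of all). The share is near the background and says nothing particular about the 10 genes as a group. The median log2 fold change of the 10 was 0.43, against −0.02 over all tested genes. The remaining 5 genes, Dsg1a, Dsg3, Dsc1, Dsp and Pkp1, were not called.

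Promoter sequences were at hand for Jup and Dsp, and these are shown because the pair contrasts in the data: both were abundant in paw, but outside it Jup kept levels of 79.0 to 401 CPM and Dsp of 0.965 to 2.66 CPM. Both sequences come from RefSeq on build GRCm38.p6, run 5′ to 3′ on the strand of the gene and cover 250 bases before to 50 bases after the gene start. Capitals mark matches, on either strand, to the GC box GGGCGG, the CCAAT box CCAAT and the E-box CAGGTG, a hexamer bound by Snail and Zeb repressors in epithelial genes. The Jup window is chr11:100397741-100398040 on the minus strand and the Dsp window is chr13:38151044-38151343 on the plus strand.
Jup: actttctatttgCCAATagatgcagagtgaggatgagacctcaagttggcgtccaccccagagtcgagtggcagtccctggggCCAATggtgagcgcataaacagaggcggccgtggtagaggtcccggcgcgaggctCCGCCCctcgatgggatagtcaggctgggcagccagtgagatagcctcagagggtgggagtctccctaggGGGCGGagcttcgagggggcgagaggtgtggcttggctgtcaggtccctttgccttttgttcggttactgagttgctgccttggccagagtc
Dsp: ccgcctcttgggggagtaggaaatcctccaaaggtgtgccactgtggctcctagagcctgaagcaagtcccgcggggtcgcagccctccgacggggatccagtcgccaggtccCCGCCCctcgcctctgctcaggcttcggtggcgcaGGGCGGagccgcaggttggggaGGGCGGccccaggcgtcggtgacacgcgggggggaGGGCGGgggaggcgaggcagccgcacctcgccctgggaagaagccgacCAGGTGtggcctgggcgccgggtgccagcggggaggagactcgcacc
The Dsp window was the richer in G and C, at 73% with 27 CpG dinucleotides, against 60.7% and 14 in the Jup window and medians of 52.7% and 7 over 27025 promoters. The Dsp window held 4 GC boxes, no CCAAT box and 1 CAGGTG, which starts 3 bases after the gene start. The Jup window held 2 GC boxes, 2 CCAAT boxes and no CAGGTG. Of all promoters, 35.9% held a GC box, 37.9% a CCAAT box and 20% a CAGGTG. Neither window held the TATA box TATAAA (14.2% of all promoters), the AP-1 site TGANTCA (7.93%) or the grainyhead site AACCGGTT (0.152%). None of these motifs overlaps another in the 2 windows. These matches describe the letters of the windows and are not evidence of binding.

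Read counts can be compared between genes only per length. Divided by the length of each gene's longest protein-coding transcript in GENCODE M21, the paw levels ran in order from Perp (2318 ± 388 CPM per kb) through Pkp1 (660 ± 169), Dsc1 (399 ± 140.0), Dsp (398 ± 128), Jup (382 ± 77.0), Dsg1a (353 ± 76.6), Pkp3 (151 ± 23.1), Dsc3 (144 ± 34.4) and Evpl (52.6 ± 4.70) to Dsg3 (9.11 ± 1.85). The ranges of Dsc1, Dsp, Jup and Dsg1a overlapped, as did those of Pkp3 and Dsc3. That of Pkp1 overlapped with those of Dsc1 and Dsp. Within each paw sample Dsg1a was below Dsc1, Dsp and Jup, at 437.7, 333.3 and 288.3 CPM per kb. This order depends on the length used. Per kb of all annotated exons the paw mean of Dsg1a was 353 CPM, above Dsc1 (323) and Jup (190) and below Dsp (396). Differences between genes were not tested. The ranges of Perp, Evpl and Dsg3 each overlapped with that of no other gene. Within each pair the same gene led in every paw sample on this scale. Dsg1a stood above Dsg3 by 39.3, 44.3 and 33.3 times in samples 1 to 3, Dsc1 above Dsc3 by 3.05, 2.59 and 2.52 times, and Pkp1 above Pkp3 by 4.82, 4.22 and 3.99 times. The order within a pair was not the same in every tissue. In spinal cord Dsc1 stood at 0.392, 0.461 and 0.540 of the level of Dsc3 per kb, on 9, 12 and 12 Dsc1 reads. In DRG Pkp1 stood at 0.222, 0.0945 and 0.405 of the level of Pkp3 per kb, on 22, 13 and 44 Pkp1 reads. The gene models behind the counts are not stated, and they may differ in length from the transcripts used.

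**Figure D3:**
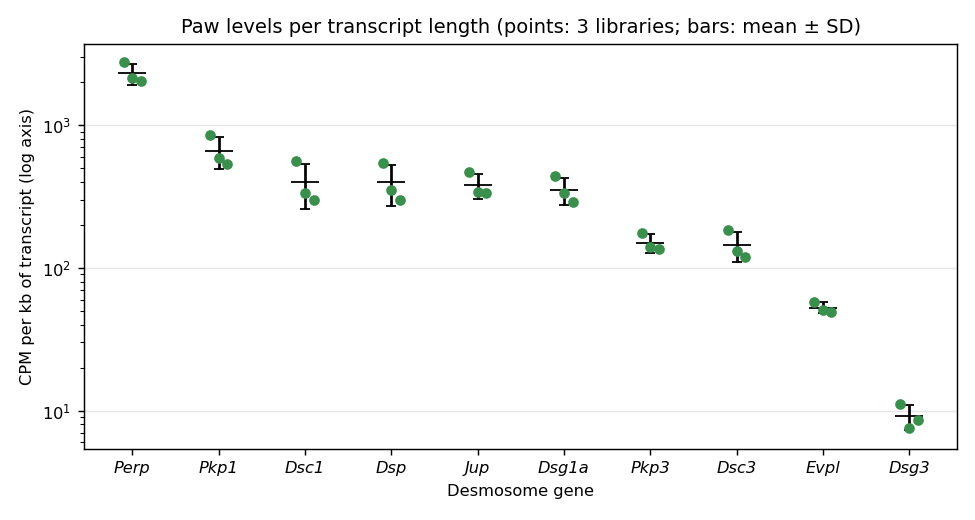
Paw levels of the 10 desmosome genes in CPM per kb of transcript, on a log axis. Points are the 3 paw libraries and bars are the mean ± SD. Perp lies highest at 2318 CPM per kb and Dsg3 lowest at 9.11 CPM per kb, and Dsc1, Dsp, Jup and Dsg1a lie between 353 and 399 CPM per kb.

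Jup and beta-catenin (Ctnnb1), its close relative in adherens junctions, exchanged their order between tissues. Per kb of transcript, Jup stood at 2.26, 1.86 and 1.81 times the level of Ctnnb1 in paw samples 1 to 3. In DRG it stood at 0.492, 0.720 and 0.494 of that level and in spinal cord at 0.188, 0.181 and 0.168. Dsp per kb stood at 1.15, 1.03 and 0.901 of the level of Jup in paw, at 0.000804 to 0.00251 in DRG and at 0.00747 to 0.0112 in spinal cord. Per kb of all annotated exons, the paw means were further apart, at 396 CPM for Dsp and 190 CPM for Jup. Plakoglobin transcripts outside the paw were therefore not matched by transcripts of desmoplakin.

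Levels outside the paw were set against those of 11 keratinocyte markers, which were the 10 of the marker list and Krt2. Krt5, Krt14, Krt1, Krt10, Krt2, Col17a1, Kprp and Lor stood in DRG at 0.0336% (Krt5) to 0.117% (Col17a1) of their paw mean, and in spinal cord at 0.0336% (Krt5) to 0.17% (Lor). The other 3 markers stood far higher. Sfn was at 1.05% of paw in DRG and 0.885% in spinal cord, Trp63 at 0.492% and 3.09%, and Itgb4 at 123% and 46.7%. Over all 11 markers the median was 0.0503% in DRG and 0.0618% in spinal cord. Among the desmosome genes, Dsg1a, Dsg3, Dsc1, Dsc3, Dsp and Pkp1 stood in DRG at 0.041% to 0.059% of paw. In spinal cord Dsg1a, Dsc1, Dsp and Pkp1 stood at 0.0348% to 0.0598% of paw, Dsg3 at 0.0295% from a single read, and Dsc3 at 0.206%. Perp was at 0.29% of paw in DRG and at 0.145% in spinal cord, and Pkp3 at 0.781% and 0.117%. Evpl was at 0.471% in DRG and 3.26% in spinal cord, and Jup at 27.1% and 6.68%. The desmosome genes thus spread over much of the range of the 11 markers, with Jup below Itgb4 and above the other 10 in both tissues. In the other direction, 6 sensory neuron markers stood in paw at 0.0329% (Scn10a) to 0.418% (Isl1) of their DRG level. In DRG, 5 of the 10 desmosome genes (Dsg1a, Dsg3, Dsc1, Dsc3 and Pkp1) and 7 of the 11 markers were highest in DRG 3. The share of all genes highest in DRG 3 was not counted, so these counts are description only. They rest on few reads, as for Dsg3 with 0, 0 and 2 reads in DRG samples 1 to 3. Jup, Pkp3 and Evpl were highest in DRG 2, and Dsp and Perp in DRG 1. Whether reads of other libraries or traces of epidermal cells contribute to these low levels was not tested.

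**Figure D4:**
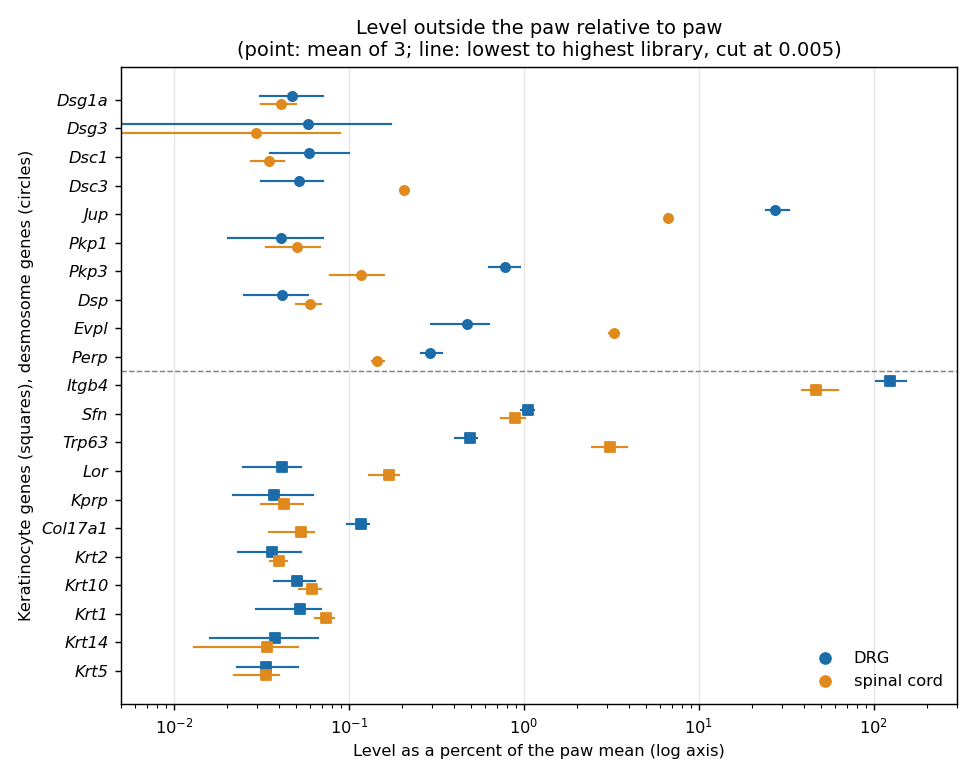
Level in DRG and spinal cord as a percent of the paw mean, on a log axis, for the 10 desmosome genes (circles) and 11 keratinocyte markers (squares). Points are means of 3 libraries and lines run from the lowest to the highest library. Most genes of both kinds lie below 1%, whereas Jup lies at 27.1% and 6.68% and Itgb4 at 123% and 46.7%.

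The 3 paw samples were not alike in these genes. All 10 were highest in paw 1, where 43.8% of the 10279 genes with at least 10 CPM in paw were highest. The ratio of paw 1 to the mean of paw 2 and 3 ran from 1.16 for Evpl to 1.75 for Dsc1, with a median of 1.40 over the 10 genes and of 1.02 over all those genes. The coefficient of variation over the paw samples had a median of 21% for the 10 genes and of 8.08% for all those genes. Dsc1 (35.1%) and Dsp (32.1%) varied most and Evpl (8.94%) least. Among keratins of the upper layers the ratio of paw 1 to the others was 1.85 for Krt1, 1.43 for Krt10 and 1.2 for Krt2. It was 1.13 for Krt5 and 1.09 for Krt14, which are basal keratins, and 0.94 for the late envelope gene Lor. For Dsg3 and Dsc3, the cadherins of the lower layers, the ratio was 1.38 and 1.47. Desmosome genes outside the 10 with at least 10 CPM in paw were all highest in paw 1 too, from 1.06 for Dsc2 to 1.87 for Dsg1b. The summed keratinocyte markers were at 52620, 35600 and 37610 CPM in paw samples 1 to 3. Krt1 and Krt10 made up most of this sum, at 16280 and 25790 CPM in paw 1. For the other markers of that list the ratio of paw 1 to the others ran from 0.94 (Lor) to 1.2 (Sfn). The summed sweat gland markers were at 656, 573 and 499 CPM and the muscle markers at 9015, 9019 and 11190 CPM in paw samples 1 to 3. The part of tissue make-up in this spread was not tested. Without paw 1 the 10 genes were still called higher in paw in both comparisons.

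**Figure D5:**
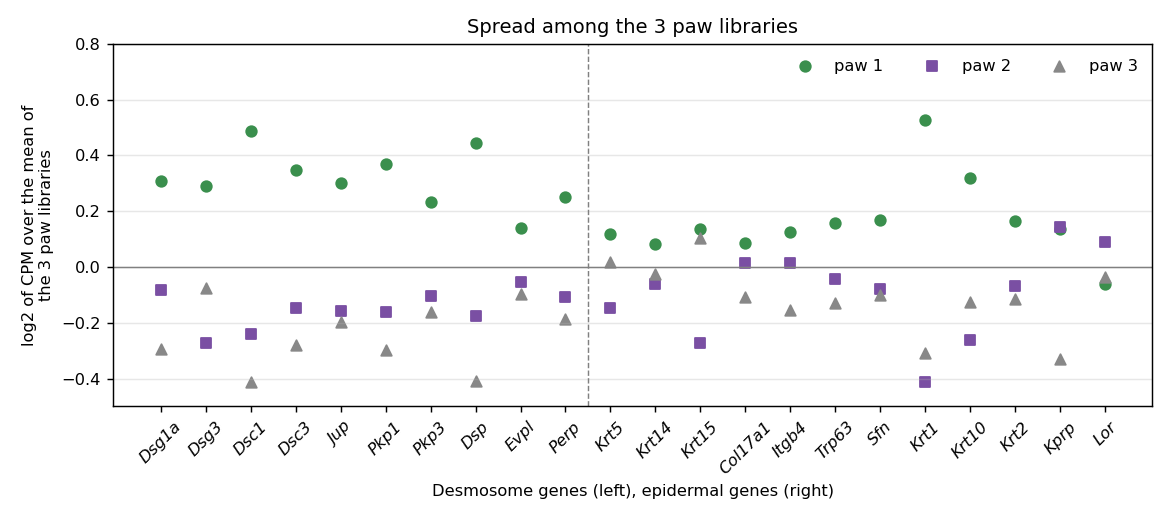
Log2 of each paw library over the mean of the 3 paw libraries, for the 10 desmosome genes (left of the dashed line) and 12 epidermal genes (right). Paw 1 lies above the others for all 10 desmosome genes, from 0.14 for Evpl to 0.49 for Dsc1, but not for Kprp and Lor.

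Other desmosome genes were less uniform. Of 10 such genes 8 were tested; 7 were called higher and 1 lower in paw than in DRG, and 6 were called higher and 2 lower in paw than in spinal cord. Their median log2 fold changes were 6.52 and 3.84. Of all tested genes, 39.7% were called higher and 40.8% lower in paw than in DRG, and 39.9% and 41.7% against spinal cord. Corneodesmosin (Cdsn), the glycoprotein of desmosomes in the cornified layer, was at 1463 ± 299 CPM in paw, 0.875 ± 0.181 in DRG and 0.577 ± 0.261 in spinal cord. Periplakin (Ppl), the partner of envoplakin, was at 778 ± 152 CPM in paw, 5.58 ± 1.63 in DRG and 0.699 ± 0.290 in spinal cord. Ppl in DRG exceeded Ppl in spinal cord by 3.02 ± 0.33 (adjusted p = 1.54e-05), the direction opposite to Evpl. Dsg1b, whose 50-base windows are shared with other genes for 49%, was at 150 ± 58.2 CPM in paw and had 6 reads in all of DRG and 4 in all of spinal cord. Dsg1b passed the filter only through paw, so its call among the higher ones was fixed by the filter.

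The cadherins of simple epithelia and heart were also called higher in paw, Dsg2 by 8.21 ± 0.26 over DRG and 3.94 ± 0.17 over spinal cord, and Dsc2 by 5.92 ± 0.32 and 3.75 ± 0.26. Dsg2 was at 29.9 ± 2.84 CPM in paw, 0.0954 ± 0.0504 in DRG and 1.95 ± 0.319 in spinal cord, and Dsc2 was at 12.8 ± 0.406, 0.201 ± 0.155 and 0.948 ± 0.0681 CPM. Both were called lower in DRG than in spinal cord, by −4.27 ± 0.33 for Dsg2 and −2.18 ± 0.40 for Dsc2, the direction also seen for Dsc3. Dsg4, the desmoglein of hair, had 29, 3 and 7 reads in the paw libraries and 0 elsewhere, so paw was at least 16.5-fold higher than DRG and at least 15.3-fold higher than spinal cord, taking 3 reads over a tissue as the floor. Dsg1c had 17, 12 and 3 reads in paw, 3 reads over all of DRG and 0 over spinal cord. Neither was tested. The plakophilins Pkp2 and Pkp4 are not restricted to epidermis. Pkp2 was at 5.97 ± 0.640 CPM in paw, 3.90 ± 0.641 in DRG and 3.49 ± 0.181 in spinal cord, and was called higher in paw than in DRG by 0.62 ± 0.17. Pkp4 was highest in spinal cord, with 413 ± 18.9 CPM there, 84.6 ± 7.97 CPM in paw and 55.1 ± 6.71 CPM in DRG. Kazn, which encodes the plakin-binding protein kazrin, was lower in paw (43.1 ± 9.33 CPM) than in DRG (139 ± 11.3 CPM, −1.69 ± 0.14) and spinal cord (171 ± 3.82 CPM, −1.99 ± 0.14).

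Of 11 adherens junction genes 4 were called higher and 2 lower in paw than in DRG, with a median log2 fold change of 0.07, and the background in that comparison was 39.7% higher and 40.8% lower. Against spinal cord 10 of the 11 were called higher in paw and 1 lower, with a median of 1.40. The background there was 39.9% higher and 41.7% lower. The largest rises over DRG were in Mllt4, which encodes the actin linker afadin (3.05 ± 0.14), and in Pvrl4, which encodes nectin-4 (2.79 ± 0.20). Neural cadherin (Cdh2) was lower in paw than in DRG (−3.94 ± 0.25). Ctnnb1 was at 696 ± 51.0 CPM in paw and 664 ± 29.7 CPM in DRG (adjusted p = 0.548). E-cadherin (Cdh1), named after its values were seen, was at 358, 282 and 268 CPM in paw and at 310, 249 and 339 CPM in DRG, with overlapping ranges. In spinal cord it was at 10.4, 10.0 and 49.8 CPM, and the highest value was that of spinal cord 3.

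Among regulators and proteases of desmosomes 8 of 10 were called higher and 2 lower in paw than in DRG. Over all tested genes 39.7% were called higher and 40.8% lower. Spink5, the inhibitor that restrains the kallikreins which cut corneodesmosomes, was higher by 11.32 ± 0.40, and Klk7, one of those kallikreins, by 11.22 ± 0.19. Both passed the filter on low counts only through their paw reads and therefore had to differ. Prkca, a kinase that regulates desmosome adhesion, was lower in paw (−3.25 ± 0.17). Trp63, the transcription factor p63 of stratified epithelia, was at 242 ± 25.2 CPM in paw, 1.19 ± 0.180 in DRG and 7.495 ± 1.73 in spinal cord. It was called lower in DRG than in spinal cord (−2.64 ± 0.20), as were Dsc3 and Evpl. Trp63 is outside the rule for named genes and was chosen after its values were seen.

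Of 13 keratin, filament and hemidesmosome partners 10 were called higher and 2 lower in paw than in DRG. Against spinal cord 12 were called higher in paw and 0 lower. The background was 39.7% higher and 40.8% lower against DRG, and 39.9% and 41.7% against spinal cord. The 2 lower calls against DRG came to 1 without DRG 1, DRG 2, paw 1 or paw 3. Krt15, a basal keratin, had 11001 reads over paw and 3 over DRG, and the paw level was 4650 times that of DRG (95% counting interval 1590 to 22600). Krt15, Krt8 and Krt18 passed the filter only through paw, so 3 of the higher calls were fixed by it. Krt5 in paw exceeded Krt5 in DRG by 11.54 ± 0.28. Dst, which encodes the plakin dystonin that neurons also express, was lower in paw than in DRG (−1.68 ± 0.16). Itgb4, which also has a role in Schwann cells, was at 260 ± 24.9 CPM in paw and 318 ± 68.0 CPM in DRG (adjusted p = 0.191).

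The genes nearest to the mean profile of the 10 were found by the root mean square distance of centred log2 CPM over the 9 libraries, among genes with at least 10 CPM in paw. They were Defb6, Pla2g4f, Gm13177, Ces2f and Gm5538, at distances of 0.20 to 0.24, with 40.4 to 154 CPM in paw and at most 0.238 CPM elsewhere. Defb6, Gm13177 and Gm5538 were at 0 CPM in DRG and spinal cord. Their log2 CPM there was set by the small count added before taking logs. The nearest to Dsp were the keratins Krt1 (0.28) and Krt10 (0.31) and Pof1b (0.32). The nearest to Jup were Rps6ka3 (0.14), Mst1r (0.22) and Lmna (0.26), which like Jup were intermediate in DRG. Lmna, for example, stood at 629 CPM in paw, 168 in DRG and 58.4 in spinal cord. The nearest to Perp were Klk11 (0.23), Tmprss13 (0.28) and Gsdma (0.30). The libraries of a tissue share its level, so these distances rest largely on 3 tissue levels and describe likeness of level only.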

How the data were processed

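Poly(A) RNA was sequenced as 50-base single-end reads from a stranded kit, per the labels' protocols. The submitters' processing notes name bcl2fastq, TopHat2, HTSeq and the mm9 build. No version, gene model or strand setting is given in the sources used here, which leaves overlapping genes uncertain. The deposited values are whole-number read counts per gene symbol as made by the authors, with 5 summary rows that stayed out of library sizes. These rows held 42.9 to 59.3% of a file's total, and reads with several alignments alone 46.9 to 47.6% in paw, against 31.9 to 35.5% in the other tissues.

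Groups are the tissues named in the titles. Sampling noise did not account for the differences between replicates (chi-square over degrees of freedom 7.3 to 36.7). The counts of all 9 libraries were fitted with tissue as the only factor in edgeR 4.0.16 under R 4.3.3 (filterByExpr, TMM, robust glmQLFit, glmQLFTest). Against 1 to 3 reads, ratios of summed reads are given with an exact 95% interval. Intervals and floors cover counting error only: reads lacking molecular identifiers may be copies of 1 molecule. Alternatives used DESeq2 1.42.0, limma 3.58.1, other scalings, no filter, a replicate block and left-out libraries. The fit was tested on simulated counts. Lengths and shared windows come from GENCODE M21 (GRCm38). The desmosome genes, the other gene lists and the tests were chosen with earlier results of these data known. All 127 list and marker entries matched a symbol, 5 of them through an older symbol. Named genes are the 10 members, the other desmosome genes and, from each other list, the 2 called genes with the largest fold in the main direction in paw against DRG, the most abundant gene with the opposite call and the most abundant uncalled gene.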

Additional observations from a re-analysis of the deposited data

How the results depend on the processing

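Every alternative run kept the calls of the 10 desmosome genes: 10 higher in paw than in DRG, 10 higher in paw than in spinal cord, and 3 higher and 2 lower in DRG than in spinal cord. This held with the factors of DESeq2, upper quartile factors, no low-count filter, DESeq2, limma-voom, a fit of the compared tissues alone, a threshold of at least 2-fold, each library left out in turn, and DRG 1 and DRG 2 left out together. Left-out libraries moved the log2 difference between DRG and spinal cord from 1.87 to 2.10 for Jup, 0.87 to 1.08 for Perp, 2.50 to 2.97 for Pkp3, −2.26 to −1.73 for Dsc3 and −3.07 to −2.54 for Evpl. Of 509 alternative values for single genes, 505 kept their direction and call. The other 4 concern uncalled differences between DRG and spinal cord at low counts: without DRG 3, Dsg1a came to −0.25 and Dsg3 to −1.84, and Pkp1 came to 0.00 without DRG 2 and to 0.47 without DRG 1 and DRG 2. Over single left-out libraries these ran from −0.25 to 0.41 for Dsg1a, −1.84 to 2.54 for Dsg3 and −0.95 to 0.00 for Pkp1. The cause was not tested. Requiring at least 2-fold left 4110 of 6386 genes higher in paw than in DRG, 4215 of 6422 higher in paw than in spinal cord, and 2261 of 4660 higher and 2316 of 4924 lower in DRG than in spinal cord. Upper quartile factors moved the median of all genes by 0.12 in paw against DRG. With length ignored or taken from all annotated exons (the second chosen after seeing the data), Perp stayed first and Evpl and Dsg3 last in paw, while the genes between them changed places. Replicate numbers in the titles are not said to mark shared mice, and deviations of same-numbered samples correlated between −0.13 and 0.271. With the number as a replicate block, 10, 10, 3 and 2 genes were called as before, and 4630 genes were higher in DRG than in spinal cord. The DRG and spinal cord levels of Dsg3 rest on 2 reads and 1 read and were not measurable at this depth.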
